A study of Mus musculus with 8 samples.

Results

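CD8 T cells of transplanted mouse lungs were taken as the cells that the deposited annotation names T cell, with at least 1 count of *Cd8a* or *Cd8b1* and no count of *Cd4* or *Foxp3*. By this rule 2288 of 5071 T cells, among 20778 cells in all, were CD8 T cells. Counts were unique molecular identifiers (UMIs), each standing for 1 captured transcript molecule, from droplet sequencing of transcript 3′ ends with 1 library per graft. The cells came from left lung grafts of male mice, harvested 1 month after transplantation without immunosuppression, and 10000 cells were loaded per graft. In the syngeneic group, B6→B6 (n = 5 mice), donor and recipient were both C57BL/6 (B6). In the HLA→B6 group (n = 3 mice), the model of bronchiolitis obliterans syndrome (BOS), the B6 recipient received the lung of a C57BL/6 donor with the transgene Tg(HLA-A2.1)1Enge/J, which encodes a human class I molecule. By these labels the groups differed in the donor. Since donor and recipient T cells share the B6 background, CD8 T cells that came with the graft and those of the recipient cannot be told apart here.

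CD8 T cells recognize peptides bound to MHC class I molecules through the T cell receptor, and the CD8 coreceptor, a dimer of the products of *Cd8a* and *Cd8b1*, binds the class I molecule itself. A human class I molecule on donor cells is foreign to B6 T cells, and CD8 T cells are known as killers of graft cells through granzymes, perforin and IFN-γ. For this model the study describes an indirect recognition of the donor HLA-A2 by the recipient. Whether CD8 T cells recognized it directly was not tested here. Naive CD8 T cells circulate through lymph nodes with the help of the receptor CCR7, lose it when they become effector cells, and carry inhibitory receptors such as PD-1 (*Pdcd1*) and LAG-3 (*Lag3*) while antigen is present.

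B6→B6 grafts, here and below in the order of replicates 1 to 5, held 56, 103, 152, 778 and 56 CD8 T cells, and HLA→B6 grafts, in the order of replicates 1 to 3, held 408, 621 and 114. Of all members, 1453 held counts of both *Cd8a* and *Cd8b1*, 635 of *Cd8b1* only and 200 of *Cd8a* only. At the edge of the rule, 316 members (13.8%) were chosen by a single *Cd8* UMI and 1972 by 2 or more, with a median of 4. Just outside it lay 294 T cells with counts of both *Cd4* and a *Cd8* gene and no *Foxp3*, and 1834 T cells with no count of any of the 4 genes, whose median depth of 1640.5 UMIs was close to the 1658 UMIs of the members chosen by a single UMI. The summed level of *Cd8a* ran from 447 to 1081 CPM (the UMIs of a gene scaled to a common total of UMIs per mouse) and that of *Cd8b1* from 1236 to 2298, against at most 28.9 and 50.0 CPM in B cells. These values chose the members and are given as a description.

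The genes of the T cell receptor complex that the rule did not use were present in all 8 mice. *Cd3e* lay between 685 and 1135 CPM and *Trac*, the constant part of the α chain, between 717 and 1176 CPM, while B cells had at most 18.4 and 21.9 CPM. *Cd79a* and *Ms4a1* of B cells, *Ncr1* of natural killer (NK) cells and *C1qa* of macrophages reached at most 3.76, 11.6, 4.13 and 7.51 CPM. Some other markers of these cells were higher, with *Cd79b* of B cells up to 36.5 CPM. *Klrb1c* and *Tyrobp* of NK cells reached 26.3 and 51.5 CPM. *Lyz2* of macrophages was highest in B6→B6 replicate 4 and HLA→B6 replicate 2, at 153 and 135 CPM. Epithelial and red blood cell markers stood out in B6→B6 replicate 4. There 9 epithelial genes summed to 1008 CPM and 5 red blood cell genes to 864 CPM. In the other mice the epithelial sum was at most 117 CPM, and the red blood cell sum at most 8.26 CPM apart from 455 CPM in HLA→B6 replicate 3.

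B6→B6 replicate 4 also stood apart in its CD8 T cells. The deposited clustering placed 954 T cells in a cluster 7 that held cells of this mouse alone, and 564 of its 778 CD8 T cells were among them. *Rag1*, a subunit of the enzyme that rearranges antigen receptor genes in developing lymphocytes, had a UMI in 50.4% of these 564 cells (exact 95% binomial interval 46.1 to 54.6%), against 0 of the 214 CD8 T cells of cluster 1 in the same mouse, which allows up to 1.40%. *Dntt*, which adds bases to receptor gene joints, was found in 55.1% and 2.80%, *Ccr9*, a chemokine receptor of thymocytes and gut-homing cells, in 69.3% and 9.35%, and *Sox4* in 56.4% and 9.81%. In no other mouse did *Rag1* or *Dntt* have any count among CD8 T cells. *Ccl5*, a chemokine of effector and memory T cells, showed the reverse, with 1.95% in cluster 7 and 42.5% in cluster 1. So did *H2-K1*, an MHC class I gene, with 11.3% and 88.3%. The cells of cluster 7 were also shallower, at a median of 802 UMIs against 2589.5. Of the 294 T cells with both *Cd4* and *Cd8* counts, 257 were cells of cluster 7. By the genes above, the 564 cells had the profile of developing rather than mature T cells, and only the rule makes them CD8 T cells. How such cells came to be in this library was not tested. Values below include cluster 7 unless stated. Leaving it out, an alternative chosen after the data were seen, left 214 CD8 T cells in B6→B6 replicate 4, and its values stand beside the shares, the counts of genes and, for the gene lists, the calls that it changed.

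**Figure D1:**
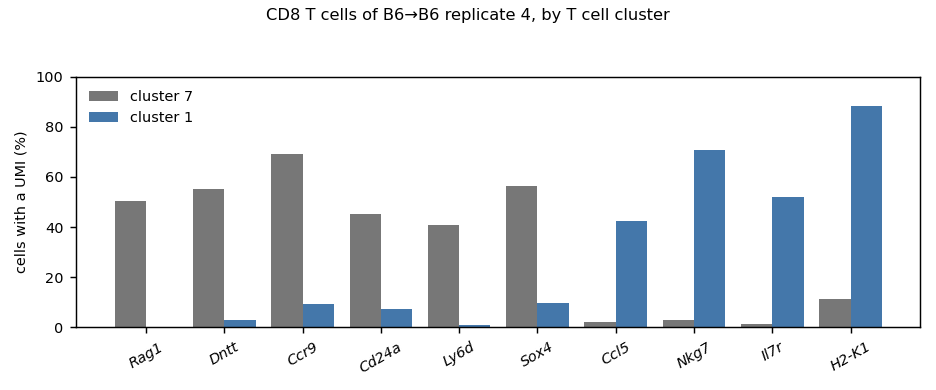
Share of CD8 T cells with at least 1 UMI (percent, vertical axis) for 10 genes in B6→B6 replicate 4, in cluster 7 (564 cells) and cluster 1 (214 cells). *Rag1*, *Dntt*, *Ccr9*, *Cd24a*, *Ly6d* and *Sox4* were found mostly in cluster 7 (50.4% against 0% for *Rag1*), and *Ccl5*, *Nkg7*, *Il7r* and *H2-K1* mostly in cluster 1 (1.95% against 42.5% for *Ccl5*).

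Total UMIs of the CD8 T cells ran from 140894 to 1406838 per mouse, and their median depth per cell from 898 to 3165 UMIs. The B6→B6 libraries numbered 1 to 3 and the HLA→B6 library numbered 2 are called linked, because 5 pairs among them shared 39 to 160 cell barcodes where 1.73 to 6.03 were expected by chance, and 63 of the 2288 members carried a barcode also found in another mouse. A pair was taken as linked at an adjusted p under 0.01 and at least 5 times the expected number. The pair of B6→B6 replicate 1 and HLA→B6 replicate 1, with 19 shared barcodes where 8.41 were expected, and that of B6→B6 replicate 3 and HLA→B6 replicate 2, with 23 where 10.9 were expected, met the first condition but not the second. HLA→B6 replicate 1 is therefore counted among the 4 libraries called unlinked, although its overlap with a linked one exceeded chance.

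The abundance of CD8 T cells was compared first. They made up 31.3, 30.2, 35.7, 52.9 and 38.1% of the T cells of B6→B6 grafts and 35.6, 55.0 and 49.4% of those of HLA→B6 grafts. The groups overlapped, and the means of 37.6% ± 9.13 (SD, n = 5) and 46.6% ± 9.98 (n = 3) differed by 8.99 percentage points (exact permutation test over 56 splits of the mice, two-sided, p = 0.304, Benjamini-Hochberg adjusted over 3 abundance measures 0.911; the smallest p possible was 0.0179). Without cluster 7 the B6→B6 mean was 35.3% ± 4.69 and the difference 11.3 points (exact p = 0.107, adjusted 0.161). The difference was 22.6 points among linked libraries and -3.05 points among unlinked ones, or 2.68 points among the latter without cluster 7.

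Of all cells of a graft, CD8 T cells were 5.91, 7.63, 6.24, 19.0 and 6.45% in B6→B6 and 6.23, 18.9 and 9.15% in HLA→B6 mice. Replicate 4 and HLA→B6 replicate 2 held the highest shares, and without cluster 7 replicate 4 was at 6.81%, within the range of its group. The difference of means was 2.37 points with cluster 7 (exact p = 0.607) and 4.81 points without it (exact p = 0.0893, adjusted 0.161). Among linked libraries it was 12.3 points, and among unlinked ones -5.03 points, or 1.06 points without cluster 7. For each conventional CD4 T cell (*Cd4* counted, *Cd8a*, *Cd8b1* and *Foxp3* at 0) there were 2.43, 1.63, 3.04, 10.2 and 3.29 CD8 T cells in B6→B6 and 2.09, 5.54 and 4.22 in HLA→B6 mice. The groups overlapped in this ratio too (exact p = 0.964 with cluster 7 and 0.357 without it). With cells thinned to an equal depth of 1000 UMIs and cluster 7 left out, the differences were 10.7 points of T cells and 5.39 points of all cells. Both had an exact permutation p of 0.0357 (adjusted 0.0536), just short of the threshold, while the ratio differed by 1.47 (exact p = 0.375). At an adjusted p under 0.05, a difference in the abundance of CD8 T cells was thus not detected with these 8 mice by any of the 3 measures.

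The makeup of the CD8 T cells differed between the groups. *Ccl5* (chromosome 11, 83525778 to 83530518, GRCm38) was detected in 37.5, 40.8, 55.9, 13.1 and 33.9% of CD8 T cells of B6→B6 and in 64.5, 84.9 and 60.5% of those of HLA→B6 mice. Each HLA→B6 mouse lay above each B6→B6 mouse, and the means were 36.2% ± 15.4 and 70.0% ± 13.1, a difference of 33.7 points (exact permutation p = 0.0179, adjusted over a family of 2 shares 0.0357). Without cluster 7 replicate 4 rose to 42.5%, the B6→B6 mean was 42.1% ± 8.38, and the difference of 27.8 points had the same exact p of 0.0179 (adjusted 0.0179). It was 40.1 points among linked and 39.0 points among unlinked libraries, or 24.3 points among the latter without cluster 7. In B cells 0.350% of cells had a *Ccl5* UMI.

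**Figure D2:**
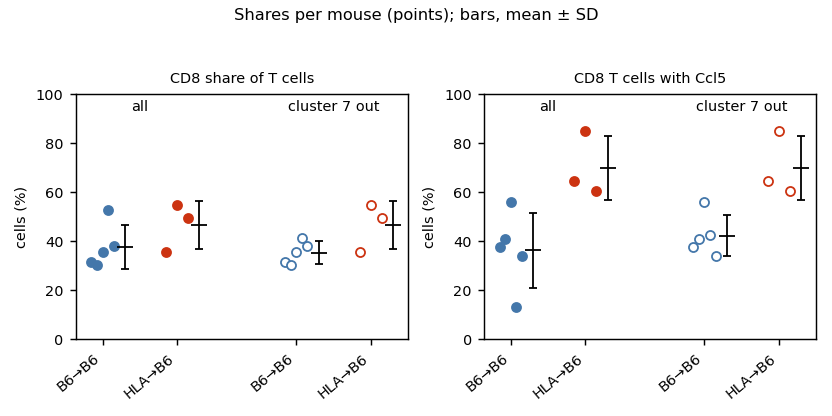
Share of T cells that were CD8 T cells (left) and share of CD8 T cells with a *Ccl5* UMI (right), in percent, for each mouse with all members (filled) and without cluster 7 (open), with bars for mean ± SD. The groups overlap in the first, and for *Ccl5* the 3 HLA→B6 mice (60.5 to 84.9%) lie above every B6→B6 mouse (13.1 to 55.9%).

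UMIs were then summed over the CD8 T cells of each mouse and tested by the quasi-likelihood method of edgeR, 4123 genes passing the filter on low counts. At a Benjamini-Hochberg adjusted p under 0.05, 29 genes (0.703%) were higher and 6 (0.146%) lower in HLA→B6 mice. Every HLA→B6 mouse was above every B6→B6 mouse in 209 genes (5.07%) and below in 50 (1.21%), and all 35 genes that passed the test were among these. Without cluster 7, 56 of 4010 genes (1.4%) were higher and 23 (0.574%) lower, and the groups did not overlap in 309 (7.71%) and 86 (2.14%). Of the 29 genes higher with cluster 7, 28 were also higher without it, and of the 6 lower, 5 were also lower. The median log2 fold change over all genes tested was -0.03 with cluster 7 and 0.00 without it, to be set beside the medians of the gene lists that follow. With HLA→B6 replicate 1 left out edgeR called 7 genes higher and 0 lower, and with HLA→B6 replicate 2 left out 4 and 0. Leaving out B6→B6 replicate 1 gave 2 lower genes, and leaving out B6→B6 replicate 4 gave 15.

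Of the 19 genes of inhibitory receptors and exhaustion found in the files, 2 of 10 tested were higher and none lower with cluster 7 (median log2 fold change 1.25), and 4 of 9 were higher without it (median 1.51). *Pdcd1* (chromosome 1, 94038305 to 94052553), which encodes PD-1, was at 28.4, 36.5, 46.5, 10.5 and 0 CPM in B6→B6 and at 288, 476 and 128 CPM in HLA→B6 mice. The lowest HLA→B6 mouse exceeded the highest B6→B6 mouse, with a log2 fold change of 3.59 ± 0.50 (SE, edgeR adjusted p = 0.00391). *Lag3* (chromosome 6, 124904361 to 124911705), a receptor for MHC class II that restrains T cells, was at 7.10, 11.0, 41.4, 18.1 and 5.80 CPM against 230, 658 and 116 CPM. The groups lay apart, and the log2 fold change was 4.04 ± 0.52 (edgeR adjusted p = 0.00257). *Tox*, a transcription factor that sustains the exhausted state, was at 71.0, 47.5, 69.8, 110 and 63.8 CPM against 189, 304 and 82.7 CPM. With cluster 7 its 1.29 ± 0.32 did not pass (edgeR adjusted p = 0.0896), and without it replicate 4 was at 43.0 CPM and the value of 1.67 ± 0.29 passed (adjusted p = 0.00369). *Rbpj*, the nuclear partner of Notch, likewise rose without cluster 7 only, by 2.20 on the log2 scale (adjusted p = 0.0032). *Ctla4* stayed under the threshold in both, at 1.65 with cluster 7 (adjusted p = 0.144). *Tigit*, *Havcr2*, *Entpd1* and *Tnfrsf9* had too few counts for the test.

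The share of cells with a UMI at an equal depth of 1000 UMIs per cell gave the same order of groups for both receptors. *Pdcd1* was found in 3.09, 4.04, 4.79, 1.16 and 0% of B6→B6 and in 20.9, 31.2 and 8.78% of HLA→B6 CD8 T cells, against 0.272% of B cells. *Lag3* was found in 0.873, 0.641, 2.93, 1.57 and 0.695% against 15.8, 32.6 and 13.6%, and in 0.238% of B cells. At full depth the shares in HLA→B6 mice were 27.5, 42.4 and 14.9% for *Pdcd1* and 20.1, 42.2 and 18.4% for *Lag3*. Thinning left out 445 of the 778 members of B6→B6 replicate 4, between 3 and 5 in each other B6→B6 mouse and 48, 17 and 28 in the HLA→B6 mice.

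Detection of the receptors was then compared cell by cell, as a description. Among HLA→B6 cells with a *Pdcd1* UMI, 36.6, 74.5 and 47.1% also had a *Lag3* UMI, in 112, 263 and 17 cells, against 13.9, 18.4 and 13.4% of the cells without one. The exact 95% intervals of the 2 shares lay apart in each of the 3 mice, at their closest 22.98 to 72.2% and 7.33 to 21.8% in replicate 3. *Tox* was found in 42.9, 60.8 and 52.9% of cells with a *Pdcd1* UMI and in 17.9, 17.6 and 11.3% of those without. Cells with *Pdcd1* were the shallower ones, with medians of 1330, 1948 and 1578 UMIs against 1749, 2208 and 2313. Intervals cover counting error only, and cells of 1 mouse are not replicates.

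Effector molecules rose in part. *Ccl4* (chromosome 11, 83662584 to 83664683), a chemokine that attracts lymphocytes and monocytes, was at 63.9, 76.7, 64.6, 47.7 and 34.8 CPM in B6→B6 and at 446, 1073 and 128 CPM in HLA→B6 mice, a log2 fold change of 3.18 ± 0.46 (edgeR adjusted p = 0.00453). *Ccl3*, its neighbor on chromosome 11 and a related chemokine, was at 0, 18.3, 15.5, 9.54 and 0 CPM against 103, 405 and 33.8 CPM, 4.11 ± 0.67 (adjusted p = 0.0121). Both were highest in HLA→B6 replicate 2. *Ifng*, which encodes IFN-γ, was at 21.3, 21.9, 10.3, 13.3 and 17.4 CPM against 44.0, 111 and 45.1 CPM, 2.11 ± 0.39 (adjusted p = 0.0204). The call of *Ifng* was lost in 3 of 20 alternatives, among them the removal of B6→B6 replicate 3 or HLA→B6 replicate 2 (adjusted p up to 0.567). *Nkg7*, a protein of cytotoxic granules, was at 1398, 1804, 1867, 703 and 1265 CPM against 3242, 4428 and 2533 CPM. It did not pass with cluster 7 (1.17 ± 0.27, adjusted p = 0.0681) and passed without it (1.00 ± 0.15, adjusted p = 0.00208), as did *Ccl5* (0.78 ± 0.19, adjusted p = 0.0381).

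The killing molecules themselves did not pass. *Gzmb* was at 35.5, 128, 41.4, 29.6 and 34.8 CPM against 133, 100.2 and 52.6 CPM (0.84 ± 0.42, adjusted p = 0.585), and *Prf1*, perforin, at 156, 91.3, 98.2, 37.2 and 81.2 CPM against 81.2, 220.4 and 82.7 CPM (0.56 ± 0.41, adjusted p = 0.777). *Gzmk*, the granzyme of memory-like CD8 T cells, was at 28.4, 76.7, 147, 20.02 and 23.2 CPM against 160, 336 and 90.2 CPM (1.62 ± 0.53, adjusted p = 0.258). *Gzma* had the opposite sign, at 234, 759, 7.76, 82.0 and 366 CPM against 42.7, 16.3 and 63.9 CPM (-3.07 ± 0.94, adjusted p = 0.204, or 0.0501 without cluster 7). Its level in B6→B6 replicate 3 was below that of every HLA→B6 mouse. Of 18 tested genes of cytotoxic granules and effector molecules, 3 were higher with cluster 7 (5 without it), none was lower, and the median was 0.77 (0.53 without it).

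Of 16 tested genes of naive and central memory cells, 1 was lower with cluster 7 and 5 without it, and none was higher. *Lef1*, a transcription factor of naive T cells, was at 376, 358, 326, 349 and 284 CPM in B6→B6 and 234, 173 and 180 CPM in HLA→B6 mice, with no overlap and a log2 fold change of -0.87 ± 0.18 (edgeR adjusted p = 0.0398). This call, the only one of the list with cluster 7, was lost in 10 of 21 alternatives, among them the removal of any single mouse other than B6→B6 replicate 4 (adjusted p up to 0.398). The median of the list was -0.82. Without cluster 7 the median was -0.77 and *Ccr7*, *Klf2*, *Tcf7* and *Foxp1* passed as well. *Ccr7* was then at 440.0, 405, 388, 471 and 441 CPM against 217, 144 and 240.5 CPM (-1.28 ± 0.20, adjusted p = 0.0026). *Klf2*, which drives the transcription of *S1pr1*, the receptor for exit from lymph nodes, was at 2094, 2187, 1802, 1336 and 1862 CPM against 867, 621 and 1165 CPM (-1.20 ± 0.20, adjusted p = 0.00369). With cluster 7 replicate 4 had 756 CPM of *Klf2*, and the groups overlapped. *Il7r*, the receptor of a survival cytokine, was at 476, 478, 566, 184 and 406 CPM against 528, 370 and 455 CPM (0.01 ± 0.30 on the log2 scale, adjusted p = 0.997).

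**Figure D3:**
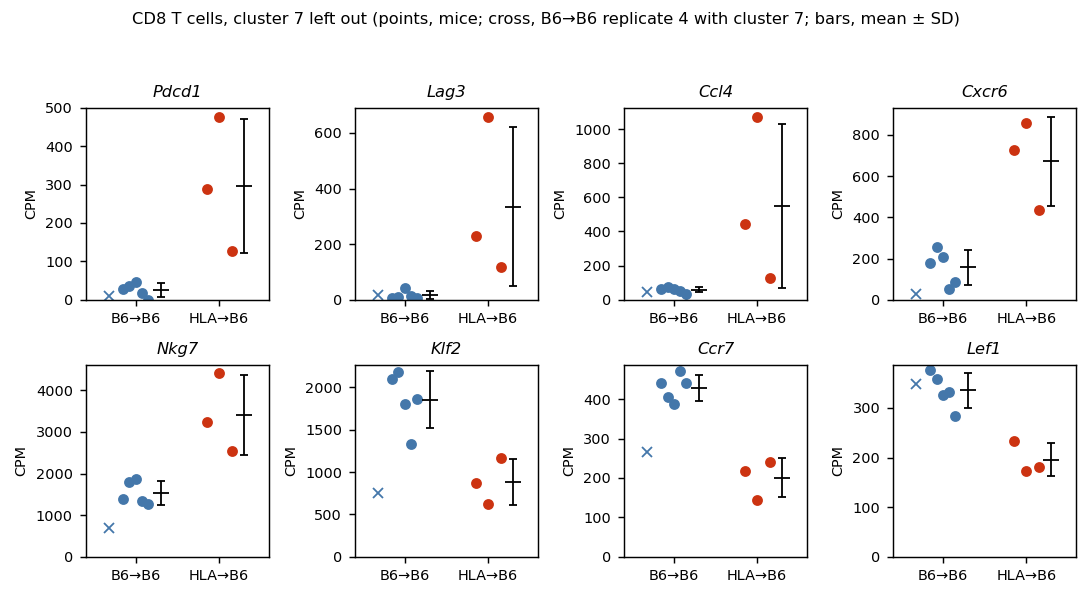
Level of 8 genes in summed CD8 T cells (CPM, linear axes from 0), 1 point per mouse without cluster 7, with bars for mean ± SD and a cross for B6→B6 replicate 4 with cluster 7. *Pdcd1*, *Lag3*, *Ccl4*, *Cxcr6* and *Nkg7* are higher in all 3 HLA→B6 mice, and *Klf2*, *Ccr7* and *Lef1* lower, while the cross for *Klf2* (756 CPM) lies among the HLA→B6 mice.

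Of 11 tested genes of effector and memory regulators, 2 were higher with cluster 7 (median 1.08) and 4 without it (median 0.65), and none was lower in either. *S100a6*, a calcium-binding protein of activated and memory T cells, was at 270, 369, 274, 159 and 162 CPM in B6→B6 and at 1028, 689 and 1033 CPM in HLA→B6 mice (1.82 ± 0.27, edgeR adjusted p = 0.00453). *Itgb1*, the integrin β1 chain, was at 71.0, 175, 93.1, 103 and 75.4 CPM against 246, 249 and 225 CPM (1.11 ± 0.24, adjusted p = 0.0455). *Id2*, a regulator of effector CD8 T cells, was at 348, 555, 525, 243 and 406 CPM against 1314, 980.2 and 718 CPM, and passed without cluster 7 only (1.06 ± 0.18, adjusted p = 0.00369). *S100a4*, another calcium-binding protein, also passed without cluster 7 only (1.58 ± 0.37, adjusted p = 0.0313).

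Of the genes of tissue residence and homing, *Cxcr6* (chromosome 9, 123806475 to 123811760), the receptor for a chemokine of the airway epithelium, was at 177, 256, 209, 29.6 and 87.0 CPM against 725, 858 and 436 CPM. It passed with cluster 7 (2.10 ± 0.46, edgeR adjusted p = 0.0488) and without it (2.00 ± 0.30, adjusted p = 0.00195). At 1000 UMIs it was found in 15.5, 20.3, 15.6, 3.02 and 7.89% of cells against 39.9, 46.8 and 29.0%, and in 0.243% of B cells. *Itgae*, the integrin chain CD103 of resident cells, had too few counts for the test and was found in 1.11 to 3.48% of B6→B6 and 0.756 to 4.13% of HLA→B6 cells. *Cd69*, another mark of residence and activation, was at 447, 226, 240, 154 and 290 CPM against 139, 166 and 240 CPM (-0.64 on the log2 scale, adjusted p = 0.592). Of 7 tested genes of tissue residence *Cxcr6* was higher and none was lower with cluster 7 (median -0.37), and without it *Cxcr6* was higher and *Klf2* lower (median 0.03). Of 16 chemokine and homing receptors tested *Cxcr6* was the only one past the threshold with cluster 7 and *Ccr7* was lower as well without it, and *Cxcr3*, the receptor for IFN-γ-induced chemokines, did not pass at 1.08 ± 0.34 (adjusted p = 0.233).

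Of the genes with the largest changes, 6 had no place in these lists. *Nrn1*, a membrane-anchored neuritin, was at 0, 0, 10.3, 0.954 and 0 CPM in B6→B6 and at 83.9, 91.0 and 33.8 CPM in HLA→B6 mice (4.69 ± 0.61, edgeR adjusted p = 0.00257). *Litaf* was at 0, 7.30, 0, 3.81 and 5.80 CPM against 56.4, 82.5 and 37.6 CPM (4.03 ± 0.50, adjusted p = 0.00257), and *Rgs16*, which dampens signaling of chemokine receptors, at 0, 0, 7.76, 4.77 and 0 CPM against 31.6, 95.2 and 52.6 CPM (3.88 ± 0.57, adjusted p = 0.00453). For these low levels the fitted fold depends on the counts added to zeros. *Serpina3g*, a protease inhibitor, rose by 2.57, *Nrp1*, a coreceptor of semaphorins, by 2.43 and *Chst12* by 2.38 on the log2 scale (adjusted p = 0.0206, 0.0121 and 0.0206), and their groups did not overlap. *Serpina3g*, *Nrp1* and *Chst12* each lost their call without HLA→B6 replicate 1 or 2, and *Litaf* without replicate 2.

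Lower genes outside the lists of naive genes were *Uck2*, *Frat2*, *Sesn1*, *Tob1* and *Klf3*. *Tob1*, which holds T cells in quiescence, was at 92.3, 58.4, 56.9, 83.0 and 46.4 CPM against 22.01, 16.3 and 37.6 CPM (-1.68 ± 0.34, edgeR adjusted p = 0.0329). *Klf3*, a repressor related to *Klf2*, was at 220.02, 230.01, 248, 206 and 319 CPM against 111, 71.1 and 143 CPM (-1.31 ± 0.28, adjusted p = 0.0441). The calls of *Frat2*, *Sesn1*, *Tob1* and *Klf3* were lost in 3 of 19, 9 of 20, 5 of 21 and 7 of 21 alternatives. For each of them these included the removal of HLA→B6 replicate 1 or 2 (adjusted p up to 0.398). *Uck2* kept its call in the 10 alternatives that tested it. *Uck2* fell by 2.30 on the log2 scale (adjusted p = 0.0187) and had too few counts to be tested without cluster 7.

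*Tcrg-C2*, a constant segment of the T cell receptor γ chain, was higher as well, at 0, 58.4, 10.3, 24.8 and 0 CPM against 138, 166 and 192 CPM (2.83 ± 0.47, edgeR adjusted p = 0.0121). Its call was lost by DESeq2 and without HLA→B6 replicate 1 or 2 (adjusted p up to 0.228). The γ constant segments are near-identical copies, so the split of counts among them is uncertain. *Trdc*, the δ chain that only γδ T cells use, was at 21.3, 43.8, 46.5, 39.1 and 11.6 CPM against 8.26, 8.53 and 90.2 CPM (adjusted p = 0.889), and the 9 γδ T cell markers summed to 23.2 to 165 CPM against 191, 232 and 338 CPM, most of it from *Tcrg-C2* itself in the HLA→B6 mice. The 2 copies *Bcl2a1b* and *Bcl2a1d* of a survival gene, which also share sequence, rose by 1.78 and 2.09 on the log2 scale (adjusted p = 0.0135 and 0.0128).

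Of the T cell receptor complex, *Cd3g* alone passed among 15 tested genes, at 887, 1095, 817, 1067 and 934 CPM against 1657, 1949 and 1522 CPM (0.74 ± 0.16, edgeR adjusted p = 0.0455). *Cd3e* and *Cd3d* gave 0.26 and -0.02 on the log2 scale (adjusted p = 0.735 and 0.997), and the median of the list was -0.11 with cluster 7 and 0.02 without it. The remaining lists held few calls or none. Of 33 tested genes of the interferon response *Isg20* was higher (median 0.31), of 19 of MHC class I presentation none (median 0.33), of 14 cytokine receptors none (median 0.29), of 6 NK cell lectin-like receptors none (median 0.83), of 11 cell cycle genes none (median -0.32) and of 17 immediate early and stress genes none (median -0.48). Without cluster 7 these lists gained 1 call, a lower level of the immediate early gene *Ier2* (adjusted p = 0.042), and their medians kept their signs. *Mki67*, the mark of dividing cells, was found in at most 0.503% of cells of any mouse at 1000 UMIs.

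Markers of other cells were read beside these values. The 16 macrophage and monocyte genes, 2 of which had no count in CD8 T cells, summed to 433 to 718 CPM in B6→B6 and 791 to 1093 CPM in HLA→B6 mice, most of it from *Ctsd* and *Ctss*, which T cells express too. *Ctsd* rose without cluster 7 only, by 0.61 on the log2 scale (edgeR adjusted p = 0.0313). The defining gene *Lyz2* was at 0, 0, 0, 153 and 0 CPM against 31.6, 135 and 11.3 CPM, and *Chil3* was at 0 in all mice but B6→B6 replicate 4 (40.05 CPM). The 11 NK cell genes summed to 181 to 909 CPM against 205 to 317 CPM, and the 14 B cell genes to 178 to 639 CPM against 233 to 305 CPM. The sums of the dendritic cell, endothelial, fibroblast and neutrophil lists were at most 179, 448, 79.1 and 52.4 CPM in B6→B6 and at most 210.4, 183, 22.5 and 88.1 CPM in HLA→B6 mice. The part of the macrophage and γδ T cell markers in the results was not tested.

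Whether genes differed within one class was asked in the CD8 T cells with a *Ccl5* UMI, 21, 42, 85, 102 and 19 cells in B6→B6 and 263, 527 and 69 in HLA→B6 mice. *Ccl5* chose these cells and was left out. Of 2714 genes tested, 29 (1.07%) were higher and 18 (0.663%) lower in HLA→B6 mice (edgeR, adjusted p under 0.05), and the groups did not overlap in 23 and 9 of them. Without cluster 7, which left 91 of the 102 cells of B6→B6 replicate 4, there were 29 and 20. Of the 29 higher genes, 19 were also higher in all CD8 T cells, among them *Lag3*, *Pdcd1*, *Cxcr6*, *Ccl3*, *Ccl4*, *Cd3g*, *S100a6* and *AW112010*, a noncoding transcript of activated T cells. Leaving out the B6→B6 mouse numbered 3 or 4 turned the 47 calls into 20 or 21. Leaving out the HLA→B6 mouse numbered 1, 2 or 3 gave 9, 8 or 93.

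*Lag3* was at 18.9, 29.6, 73.9, 10.8 and 19.2 CPM in this class against 349, 773 and 165 CPM (3.56 ± 0.47, edgeR adjusted p = 0.00113). *Pdcd1* was at 75.5, 98.8, 78.5, 25.1 and 0 CPM against 389, 548 and 147 CPM (2.63 ± 0.40, adjusted p = 0.00275). For both genes the groups stayed apart within the class. *Tox* was at 56.6, 69.2, 92.4, 39.5 and 96.2 CPM against 251, 352 and 100.05 CPM (1.76 ± 0.33, adjusted p = 0.00745), and *Cxcr6* at 189, 415, 217, 71.7 and 135 CPM against 1039, 1000.2 and 506 CPM (2.01 ± 0.33, adjusted p = 0.00292). Of 8 tested genes of inhibitory receptors and exhaustion 3 were higher and none lower, with a median of 1.32 against 0.02 over all genes of the class. *Cd3g* was at 868, 1265, 795, 685 and 962 CPM against 2104, 2139 and 1665 CPM (1.03 ± 0.18, adjusted p = 0.00525).

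*Gzma* had the largest fall of the genes past the threshold in this class, at 623, 2056, 13.9, 190.1 and 1154 CPM against 69.4, 19.5 and 100.05 CPM (-3.93 ± 0.89, edgeR adjusted p = 0.0281). Replicate 3 of B6→B6 lay below the HLA→B6 mice, so the groups overlapped. *Klf2* was at 2113, 1967, 1353, 1144 and 2404 CPM against 562, 478 and 1065 CPM (-1.42 ± 0.28, adjusted p = 0.00965), and *Lef1* at 151, 178, 222, 226 and 192 CPM against 109.7, 115 and 94.2 CPM (-1.04 ± 0.22, adjusted p = 0.0166). Neither overlapped between the groups. *Klf2* did not pass when HLA→B6 replicate 1 or 2 was left out (adjusted p up to 0.146), and *Lef1* lost its call in 6 of 20 alternatives, among them the removal of either of these or of B6→B6 replicate 3 or 4 (adjusted p up to 0.316). *Klf3* fell by 1.89, *Rasgrp2*, which activates the integrin switch Rap1, by 1.24 and *Tob2*, a relative of *Tob1*, by 1.22 on the log2 scale (adjusted p = 0.00275, 0.0166 and 0.0211). *Klf3* passed in all 20 alternatives that tested it, while *Rasgrp2* lost its call in 3 and *Tob2* in 7, both of them without HLA→B6 replicate 1 or 2 and *Tob2* also without B6→B6 replicate 4. *Tox* did not pass without either of those HLA→B6 mice or without B6→B6 replicate 4 (adjusted p up to 0.23).

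Several effector genes did not pass within the class. *Nkg7* gave 0.60 ± 0.20 (edgeR adjusted p = 0.181), *Id2* 0.88 ± 0.22 (adjusted p = 0.0502), *Gzmk* 0.76 ± 0.34 (adjusted p = 0.399), *Gzmb* -0.07 ± 0.38 (adjusted p = 0.992) and *Prf1* 0.15 ± 0.30 (adjusted p = 0.929). *S100a6* passed, with 1.08 ± 0.23 (adjusted p = 0.0188). *Ctss*, the protease cathepsin S, which is also on the list of macrophage genes, was higher too, at 18.9, 59.3, 50.8, 32.3 and 76.9 CPM against 123, 215 and 129 CPM (1.71 ± 0.30, adjusted p = 0.00525).

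**Figure D4:**
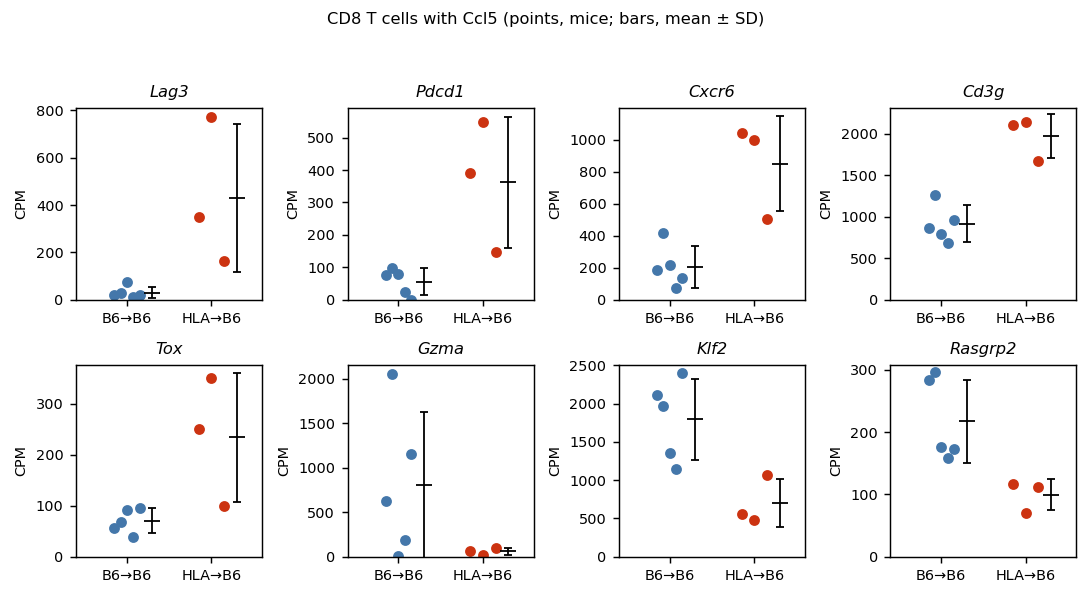
Level of 8 genes (CPM, linear axes from 0) in CD8 T cells with a *Ccl5* UMI, 1 point per mouse, with bars for mean ± SD. *Lag3*, *Pdcd1*, *Cxcr6*, *Cd3g* and *Tox* are higher in all 3 HLA→B6 mice, *Klf2* and *Rasgrp2* lower, and *Gzma* is lower with 1 B6→B6 mouse (13.9 CPM) below them.

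CD8 T cells were next set beside the 563 conventional CD4 T cells of the same mice, with the mouse as a block. The CD4 sums held 23, 63, 50, 76 and 17 cells in B6→B6 and 195, 112 and 27 in HLA→B6 mice. In the smallest of these sums low CD4 levels rest on few UMIs. Of 3574 genes, 206 (5.76%) were higher and 162 (4.53%) lower in CD8 T cells (edgeR, adjusted p under 0.05), and 79 of the 206 were ribosomal or unnamed genes. Without cluster 7 there were 255 and 201 of 3512 genes. *Cd8a*, *Cd8b1*, *Cd4* and *Foxp3*, which chose the cells, were left out. *Ccl5* was higher in CD8 T cells in 8 of 8 mice, at 11495 ± 6187 CPM (mean ± SD, n = 8) against 1734 ± 1649 CPM (3.33 ± 0.27, adjusted p = 1.63e-11). *Gzma* (4.74 ± 0.35), *Prf1* (3.43 ± 0.32) and *Nkg7* (2.39 ± 0.13) were also higher in 8 of 8 mice, and 10 of 14 tested genes of cytotoxic granules and effector molecules were higher and 1 lower, with a median of 1.91 against 0.01 over all genes.

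All 5 tested NK cell lectin-like receptors were higher in CD8 T cells, with a median of 2.89. Among them *Klrd1*, the partner chain of the *Klrc1* product, was at 372 ± 111 CPM against 67.1 ± 32.1 CPM (2.62 ± 0.18, edgeR adjusted p = 3.38e-13). *Klrc1* and *Klrk1* were higher in 8 of 8 mice. *Ly6c2*, a surface protein of memory CD8 T cells, was at 667 ± 237 CPM against 73.0 ± 44.4 CPM (3.19 ± 0.18, adjusted p = 7.52e-16). Lower in CD8 T cells in every mouse were *Cd40lg*, the helper signal for B cells (3.05 ± 3.35 against 115 ± 32.6 CPM, -4.89 ± 0.39, adjusted p = 1.32e-11), *Zbtb7b*, the factor that commits thymocytes to the CD4 lineage (-3.20 ± 0.46, adjusted p = 4.75e-06), *Maf* and *Icos* (-2.83 ± 0.23 and -1.68 ± 0.16). *Pdcd1* and *Lag3* did not pass, at -0.22 ± 0.21 and 0.10 ± 0.22 (adjusted p = 0.682 and 0.907).

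The difference between HLA→B6 and B6→B6 mice was finally compared between the 2 kinds of T cell by the interaction of group and cell class. Of 3574 genes, 5 (0.14%) had a higher log2 fold change in CD8 T cells and 4 (0.112%) a lower one. There were 15 calls instead of 9 once B6→B6 replicate 3 was removed, and 2 once HLA→B6 replicate 2 was. The lowest adjusted p of the first was that of *Id2*. In CD8 T cells it was at 348, 555, 525, 243 and 406 CPM in B6→B6 against 1314, 980.2 and 718 CPM in HLA→B6 mice, and in CD4 T cells at 406, 1294, 1124, 354 and 755 CPM against 829, 668 and 445 CPM. The 3 HLA→B6 values exceeded every B6→B6 value in CD8 T cells and lay within the B6→B6 range in CD4 T cells, and the fold changes differed by 1.48 ± 0.23 (edgeR adjusted p = 0.000173). *S100a6* differed by 1.46 ± 0.31, *S100a4* by 1.597 ± 0.33, *Lgals3* by 2.37 ± 0.50 and *Cxcr6* by 1.36 ± 0.30 (adjusted p = 0.0128, 0.00974, 0.0128 and 0.0166), and all 5 also passed without cluster 7. Of the 5, only *Id2* kept its call in all 18 alternatives. *S100a4*, *S100a6*, *Lgals3* and *Cxcr6* lost theirs in 3, 4, 4 and 5 of them, each without HLA→B6 replicate 2 among others. *Cxcr6* lost it without any single HLA→B6 mouse.

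*Tnfsf8*, the ligand CD30L, went the other way. It was at 49.7, 65.7, 59.5, 22.9 and 87.0 CPM against 52.3, 35.5 and 45.1 CPM in CD8 T cells and at 143, 120.1, 273, 44.2 and 133 CPM against 334, 334 and 315 CPM in CD4 T cells (-1.63 ± 0.35, edgeR adjusted p = 0.0157; -1.73 ± 0.35 without cluster 7, adjusted p = 0.006). *Ramp1*, a partner of neuropeptide receptors, gave -3.00 ± 0.51 with cluster 7 and -2.15 ± 0.46 without it (adjusted p = 0.000652 and 0.0111). *Tnfsf8* lost its call in 4 of 18 alternatives and *Ramp1* in 3, both without HLA→B6 replicate 2 and *Ramp1* also without B6→B6 replicate 4. *Ldhb* and *Hbb-bs* (-3.43 and -3.16) rested on cluster 7. Without it *Ldhb* had too few counts for the test, and *Hbb-bs*, a globin gene of red blood cells with counts in 2 mice only among CD8 T cells, gave 0.70 ± 0.52 (adjusted p = 0.995).

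**Figure D5:**
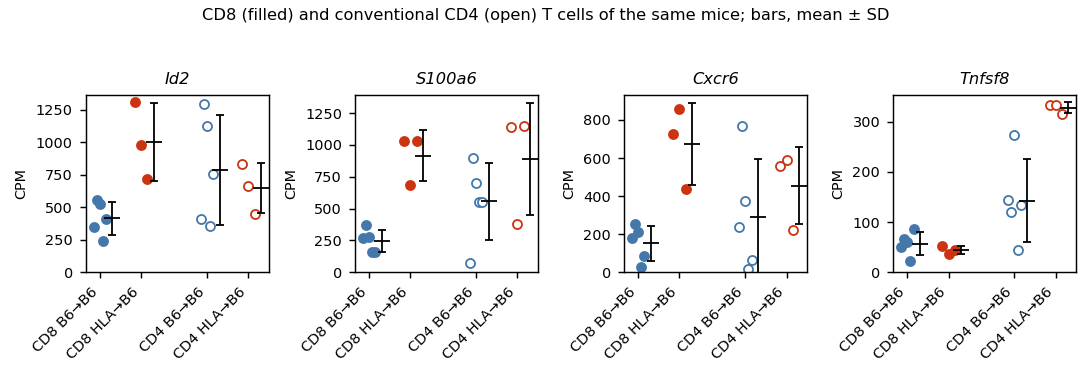
Level of 4 genes (CPM, linear axes from 0) in CD8 T cells (filled) and conventional CD4 T cells (open) of the same 8 mice, with bars for mean ± SD. For *Id2*, *S100a6* and *Cxcr6* the HLA→B6 mice lie above all B6→B6 mice in CD8 T cells only, and for *Tnfsf8* in CD4 T cells only.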

How the data were processed

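Droplet single-cell RNA sequencing gave 1 library per graft. The authors deposited UMI counts per gene and cell, made with Cell Ranger on mm10 (GRCm38) and analysed with Seurat, with a table of cells that gives mouse, cell type and cluster. Tool versions were not given in the sources used here. The study describes a filter on barcodes with few UMIs and removal of ambient RNA with SoupX, and whether the deposited counts precede SoupX is not stated. The numbers of the HLA→B6 mice were taken from the sample column of the table of cells, while the cell names number them differently, so these numbers may be crossed, which bears on the replicate block and the pairing check but not on the groups. In the files, 0 columns of values were left unused.

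Counts of the members were summed per mouse and class (minimum 10 cells) and tested with edgeR 4.0.16 (R 4.3.3, limma 3.58.1) by TMM normalization, filterByExpr with a minimum count of 10 and the quasi-likelihood test, with Benjamini-Hochberg adjustment over all genes tested and a threshold of 0.05. *Cd8a*, *Cd8b1*, *Cd4* and *Foxp3* were left out of the fits. CD8 and CD4 sums were compared with the mouse as a block. Shares were compared by two-sided exact permutation over mice. P-values measure the spread between mice. Other tools were DESeq2 1.42.0, scanpy 1.11.5, scipy 1.17.1, pandas 2.3.3, numpy 2.4.6 and matplotlib 3.10.9 under Python 3.11.15. Scripts were tested on simulated data. Cells were thinned to 1000 UMIs to compare shares of cells with a UMI, and binomial intervals are exact at 95%, with 3 counts as the limit of a count of 0. Intervals and limits cover counting error only.

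Scrublet (expected rate 0.06) marked 256 cells (1.23%), 6 of them members (0.262%), which were kept and left out in an alternative. Members sharing a barcode with another mouse numbered 63 and were also left out in an alternative.

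Members and the 23 gene lists (350 genes, 349 in the files) were chosen with earlier results of these data known. Named genes were up to 12 of the largest rises and falls per fit past the threshold whose groups did not overlap (for CD8 against CD4, changed the same way in every mouse), the genes of lowest p up to 6 where fewer than 6 passed, and examples of the lists. Ribosomal and unnamed genes were counted only. Genes outside this rule, such as *Ldhb* and *Gzma*, are named where a result turned on them. One item of the planned analysis is not reported here, with the share of cells and the narrower class of *Ccl5* cells that needed it. The comparison within a class was therefore made in all CD8 T cells with *Ccl5*, a setting listed in advance as a variation and taken up after its results were seen, which called more genes than the narrower class, with *Ccl5* and *Ccr7* left out of the fit. The *Ccl5* share stayed adjusted over the 2 planned shares. Coordinates are of GRCm38. Same-numbered mice showed no clear pairing, with correlations of their deviations of -0.0206, 0.1235 and -0.1941. Since the numbers of the HLA→B6 mice may be crossed, this check cannot exclude a pairing.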

Additional observations from a re-analysis of the deposited data

Results flagged for a closer look

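In B6→B6 mice, replicate 4 stood far from the other 4 in the CD8 share of all cells (19.0%, nearest 7.63%) and in the ratio of CD8 to conventional CD4 T cells (10.2, nearest 3.29). Replicate 3 stood apart in *Nrn1* (10.3 CPM in summed CD8 T cells, nearest 0.954 CPM), and replicate 5 in *Klf3* among CD8 T cells with *Ccl5* (442 CPM, nearest 226 CPM). These are 4 of 43 groups tested by Dixon's criterion, and chance flags about 1 in 20 groups.

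The log2 fold change between HLA→B6 and B6→B6 mice differed between CD8 and conventional CD4 T cells, by the interaction term in edgeR, for 9 genes. It was higher in CD8 T cells by 2.37 for *Lgals3*, 1.597 for *S100a4*, 1.48 for *Id2*, 1.46 for *S100a6* and 1.36 for *Cxcr6*. The difference was -3.43 for *Ldhb*, -3.16 for *Hbb-bs*, -3.00 for *Ramp1* and -1.63 for *Tnfsf8*.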

How the results depend on the processing

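The difference in the CD8 share of T cells kept its sign when each mouse was left out (4.82 to 14.5 points), and that of all cells ran from -1.35 points (without HLA→B6 replicate 2) to 4.96. The ratio of CD8 to CD4 T cells, lower by 0.175 in HLA→B6 mice, changed sign when cells were thinned (1.21), without cluster 7 (0.981), with both (1.47), when B6→B6 replicate 4 (1.35) or HLA→B6 replicate 1 (0.755) was left out and with a replicate block (1.58), and ran from -0.971 to 1.35 when mice were left out. The *Ccl5* share differed by 26.2 to 38.6 points when mice were left out. In these smaller designs the adjusted permutation p of 0.0571 to 0.19 did not pass, and fewer splits raise the smallest p possible. Leaving out B6→B6 replicate 3 or 4 gave 0.0571, and replicate 1, 2 or 5, with equally many splits, 0.114. Leaving out HLA→B6 replicate 1 or 3 gave 0.0952, and replicate 2 gave 0.19. The higher value of each pair was therefore not the smallest possible. The 33.7 points of the *Ccl5* share did not pass by an exact Mann-Whitney test either (adjusted p = 0.0714). With the groups wholly apart, that test gave its smallest possible p before adjustment, so this miss says nothing about the size of the difference.

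Genes higher and lower in CD8 T cells numbered 132 and 137 with no filter, 10 and 0 with equal numbers of cells, 56 and 23 without cluster 7, and 51 and 17 with the linked set as a block, 13 were lower by DESeq2, and leaving out mice gave 4 to 38 and 0 to 15. Without cluster 7 the counts were 27 and 67 by DESeq2, 105 and 145 with the linked set as a block, and 23 to 121 and 7 to 149 when mice were left out. Against CD4 T cells they were 340 higher with no filter, 116 and 86 with equal numbers of cells, 112 and 73 with no mouse block, and 163 to 245 and 121 to 184 when mice were left out. For the difference of effects there was 1 call with equal numbers of cells and 2 to 15 when mice were left out, and *Hbb-bs* turned to 0.70 without cluster 7. Within the cells with *Ccl5* there were 24 calls by DESeq2, 140 with no filter, 14 with equal numbers of cells, 12 with a replicate block, and 8 to 93 when mice were left out. The replicate block gave 24 higher and 7 lower genes in CD8 T cells, although the numbers as used here showed no clear pairing. It used mice numbered 1 to 3 alone and so left out B6→B6 replicate 4, which makes the fits with and without cluster 7 the same fit. The causes of these changes were not tested.

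Of 342 refits of 18 named genes in all CD8 T cells, 291 kept their call, 51 lost it and 0 turned sign. Fewer than 60 CD8 T cells in B6→B6 replicates 1 and 5 limit the precision of low genes there. So do the 23 and 17 conventional CD4 T cells of these mice and the 27 of HLA→B6 replicate 3.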
